A study of Mus musculus with 6 samples.

Results

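The imprinted growth genes described here are H19, Igf2, Igf2r, Kcnq1ot1, Meg3, Rian, Mirg and Dlk1. They were taken by name, and their LACE-seq peaks were those that lay inside the mm9 GENCODE interval of the gene on the strand opposite to the gene, which is the strand that the reads of its RNA carry in these libraries. Of these 8 genes, 7 had an interval among the 37310 annotated genes, and Kcnq1ot1 had none and was handled apart. Altogether 69 of the 178779 peaks of the 6 libraries lay inside the 7 genes on the strand of the RNA, and 55 of these 69 were in H19.

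LACE-seq maps the RNA bases at which a protein was crosslinked, and here the protein was YTHDC1, the nuclear reader of N6-methyladenosine (m6A). Wild-type ASC-48h, satellite cells activated by 48 hr of culture, gave 4 libraries, the technical replicates T1 and T2 made from each of the biological replicates B1 and B2, and wild-type C2C12, a mouse myoblast line, gave replicates 1 and 2. The C2C12 libraries came from more cells than the ASC libraries, and all 6 were made with the same YTHDC1 antibody; the labels number the C2C12 replicates as biological whereas the text of the paper calls them technical, so that their spread may be technical only. No library without the YTHDC1 antibody was analysed here, so binding and RNA level cannot be told apart, nor can fewer cells of a type and less RNA per cell.

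In imprinted genes only the maternal or only the paternal copy is expressed. Many of them set the growth of the embryo and of its muscle, and they lie in clusters in which a long noncoding RNA is made from the copy that keeps the coding genes silent. H19 is the maternally expressed noncoding RNA next to Igf2, the paternally expressed insulin-like growth factor, and its first exon carries the hairpin of miR-675. Igf2r encodes the receptor that takes Igf2 to the lysosome, and the antisense RNA Airn starts inside it. Kcnq1ot1 is the antisense RNA of the Kcnq1 cluster. Dlk1 is the paternally expressed Notch-like membrane protein of a cluster whose maternal copy gives the noncoding RNAs Meg3, Rian and Mirg, with small nucleolar RNAs in Rian and miRNAs in Mirg. H19 is abundant in the muscle of the embryo.

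The ASC libraries held from 7925 to 19448 peaks and the C2C12 libraries 60540 and 71992. Total read numbers are unknown because only peaks are listed. The lowest peak listed had 4 reads per 20-nt bin in ASC B2 T2, 5 in the other 3 ASC libraries and 6 in both C2C12 libraries, so a gene without a peak is one in which no bin reached that level. The myoblast markers carried peaks in both cell types, from 1 to 4 of 6 genes in an ASC library and 5 and 6 of 6 in C2C12, and the 3 immune markers had none in any library. Pax7, which defines satellite cells, had 1, 1, 2 and 10 peaks in the ASC libraries, given here and below with T1 before T2 and B1 before B2, and 0 and 1 in C2C12. Of the fibro-adipogenic markers, none of 3 had a peak in an ASC library and 2 of 3 did in each C2C12 library, with 6 and 10 peaks. Of 3 endothelial markers, Pecam1 had 1 peak in all 6 libraries and the others had none. Myotube markers had at most 1 peak in an ASC library and 0 and 2 in C2C12.

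The sequences that carry most of these data are those of H19, which lies at chr7:149761434-149764048 on the minus strand of mm9 and is annotated as a processed transcript. Shown first are the 5 with most reads on average out of the 11 peaks found in both C2C12 replicates, followed by both peaks that touch the miR-675 hairpin. Each is given 5′ to 3′ on the RNA, in DNA letters, with the called 20-nt bin in capitals and 5 bases to each side in lower case. The names give the distance of the bin from the 5′ end of H19.
H19 2168: agcctCTACCCCGGGATGACTTCATcatct
H19 1928: tcaggAATCTGCTCCAAGGTGAGCTggggc
H19 1868: taagtCCGTCTCGTTCTGAATCAAGaagat
H19 2268: agagaCTCAAAGCACCCGTGACTCTgtttc
H19 1688: tctgcTGCTCTCTGGATCCTCCTCCcccta
H19 1008: cagggACTGGTGCGGAAAGGGCCCAcagtg
H19 1068: agtccCTGGGTCTGGCATGACAGACagaac

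The hairpin of miR-675 lies at chr7:149762969-149763052, inside exon 1 of H19. RefSeq (GRCm38.p6) gives its mature forms, shown here with bases 2 to 8, the seed, in capitals. Both occur without mismatch in the mm9 hairpin.
mmu-miR-675-5p: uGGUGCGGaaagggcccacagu
mmu-miR-675-3p: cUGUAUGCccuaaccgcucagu

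H19 carried peaks in all 6 libraries. In ASC B1 it had 3 peaks in T1 and 7 in T2, in ASC B2 it had 6 in T1 and 11 in T2, and in C2C12 it had 16 in replicate 1 and 12 in replicate 2. With T1 and T2 averaged first, the mean was 6.75 ± 2.47 peaks in ASC (SD, n = 2) and 14 ± 2.83 in C2C12 (SD, n = 2 libraries), and the highest ASC library lay just below the lowest of C2C12. All 55 peaks touched an exon, and no peak lay on the opposite strand within 1000 nt of the gene in any library. The nearest peak on the same strand was at least 73773 nt upstream and at least 187714 nt downstream of H19. Even with the C2C12 libraries taken as 2 biological replicates, a two-sided exact permutation test of 2 against 2 cannot give a p below 0.333, so no test was made between the cell types.

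**Figure D1:**
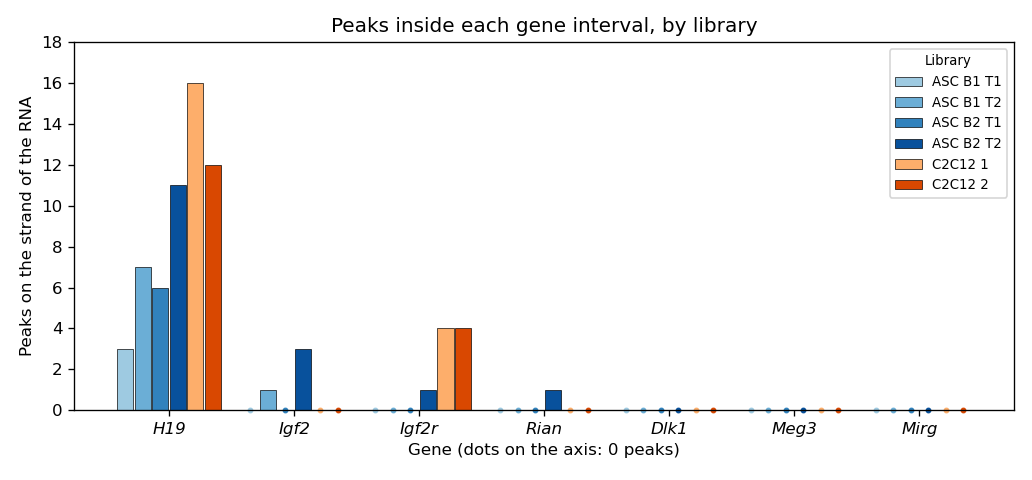
Number of peaks on the strand of the RNA (y axis) inside each of the 7 annotated gene intervals (x axis), with 1 bar for each library and a dot on the axis where a library had 0 peaks. H19 carried from 3 to 16 peaks in every library, Igf2 and Rian only in ASC libraries, Igf2r up to 4, and Dlk1, Meg3 and Mirg none.

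The C2C12 replicates shared 11 H19 peaks, and the other 6 annotated genes shared none. Thus 1 of 7 genes had a C2C12 shared peak, beside 16.5% of all annotated genes, 21.8% of protein-coding genes and 4.81% of long noncoding genes. In at least 1 of the C2C12 libraries, 2 of the 7 genes had a peak, H19 and Igf2r, beside 30.7% of all annotated genes. In at least 1 ASC library, 4 of the 7 had a peak, H19, Igf2, Igf2r and Rian, beside 18.8%. None had an ASC shared peak, which must recur in T1 and T2 of both B1 and B2, and 2.09% of all annotated genes had one. The numbers of genes are small, and the shares over all genes are given as the background for them.

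Along H19, the peaks of the 6 libraries formed 25 sites once overlapping peaks were joined. Of these sites 9 were called in both cell types, 8 in ASC only and 8 in C2C12 only, and 12 rested on 1 library. In 7 sites at least 4 libraries had a peak, and 1 site was called in 5. No site was called in all 6.

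The site called in 5 libraries was at 1068 nt from the 5′ end, chr7:149762961-149762980. It had 8 reads per bin in ASC B1 T2, 5 in B2 T1, 4 in B2 T2, and 6 and 8 in C2C12, and B1 T1 had no peak there. Of the 20 nt of this bin, 12 are the 3′ end of the miR-675 hairpin and the others follow it. The second site on the hairpin, at 1008 nt, was called in C2C12 alone, with 6 reads per bin in each replicate, and covers most of miR-675-5p with its seed. No peak of any library touched the bases of miR-675-3p.

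The highest H19 peak in C2C12 lay at 2168 nt, in exon 5, chr7:149761861-149761880. It had 12 and 11 reads per bin in C2C12, 5 in ASC B1 T1 and 9 in ASC B2 T2, and was not called in the other ASC libraries. It was also the highest H19 peak of ASC B2 T2. The next was at 1928 nt, chr7:149762101-149762120, with 11 and 8 reads in C2C12 and 7 and 5 in T1 and T2 of ASC B1, and no peak in B2. Its bin runs across the 3′ end of exon 4, with 13 nt in the exon and 7 in intron 4. It was the only one of the 11 shared peaks with intronic bases.

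The peak at 1868 nt, also in exon 4, had 10 and 8 reads per bin in C2C12 and 7 in ASC B1 T2. Those at 2268 nt in exon 5 (7 and 9 reads) and at 1688 nt in exon 3 (8 and 8 reads) were found in C2C12 alone. At 1648 nt, exon 3 held another C2C12 shared peak with 9 and 7 reads, the same mean as the last 2. Exon 3 peaks were thus called in both C2C12 replicates and in no ASC library.

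**Figure D2:**
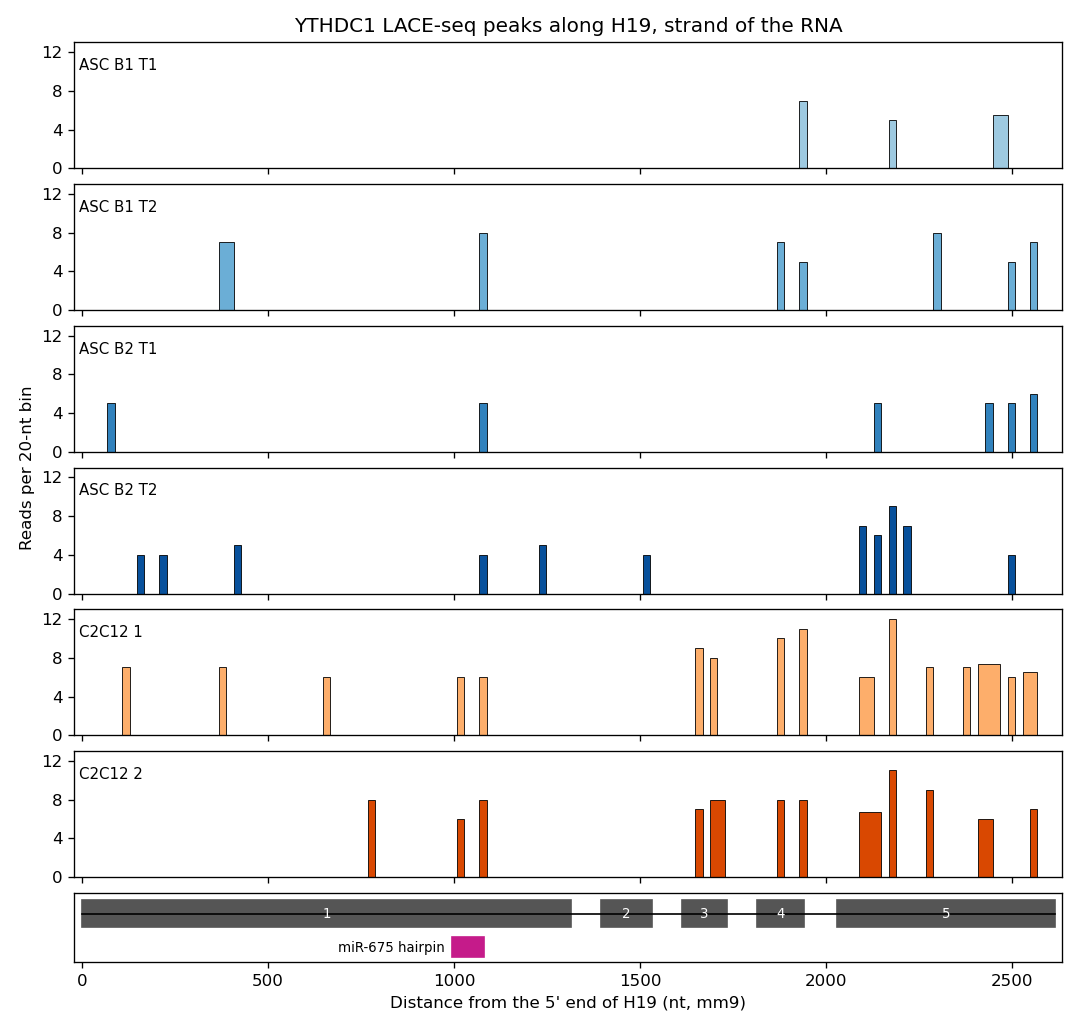
H19 peaks on the strand of the RNA in each library, as bars at their distance from the 5′ end of H19 in nt (x axis), with the reads per 20-nt bin as height and the peak as width, above the 5 exons of H19-001 (grey) and the miR-675 hairpin (pink). Exon 5 holds more peaks for its length than exon 1 in all libraries, and exon 3 peaks are in C2C12 only. The peak at the end of the hairpin stands in 5 of the 6 libraries.

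Exon 5 held more peaks for its length than exon 1 in every library. Exon 5 of H19-001 has 586 nt and exon 1 has 1315 nt. The peaks per kb in exons 5 and 1 were 3.41 and 0 in ASC B1 T1, 5.12 and 1.52 in B1 T2, 6.83 and 1.52 in B2 T1, and 8.53 and 3.8 in B2 T2. In C2C12 they were 11.9 and 3.8 in replicate 1 and 8.53 and 2.28 in replicate 2. Exons 3 and 4, of 122 and 128 nt, held more than exon 5 in both C2C12 replicates, with 16.4 and 15.6 per kb from 2 peaks each. Exon 4 also did so in T1 and T2 of ASC B1, with 7.81 and 15.6 per kb, and held no peak in ASC B2. Of 27 ASC peaks 14 touched exon 5, 9 exon 1 and 4 the short exons between them, and of 28 C2C12 peaks these numbers were 12, 8 and 8. Exon 2 held 1 peak, in ASC B2 T2 with 4 reads.

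Most H19 peaks of ASC B1 T1, B1 T2 and B2 T1 were also found in C2C12, but fewer of those of B2 T2. Overlap with a peak of either C2C12 replicate was found for 3 of 3 H19 peaks in ASC B1 T1 and 6 of 7 in B1 T2. It was found for 5 of 6 in B2 T1 and 5 of 11 in B2 T2. Together these are 19 of 27 calls, in which a place called in more than 1 library counts each time. By distinct site, 9 were called in both cell types and 8 in ASC only. Among all exonic peaks on the strand of the RNA the share found in C2C12 was 38.4% and 57.6% for T1 and T2 of B1, and 40.3% and 30.6% for those of B2. For the 7 H19 peaks of B1 T2 the share was 85.7% (95% Clopper-Pearson interval 42.1 to 99.6), and for the 11 of B2 T2, the library that lists peaks of 4 reads, 45.5% (16.7 to 76.6). In the other direction, 9 of 16 H19 peaks of C2C12 replicate 1 (56.2%, 29.9 to 80.2) and 7 of 12 of replicate 2 (58.3%, 27.7 to 84.8) overlapped an ASC peak, beside 4.2% and 4.31% of all exonic C2C12 peaks. These intervals cover counting error only. The shares over all exonic C2C12 peaks take in genes with no ASC peak, whereas H19 was among the genes with most ASC peaks. No comparison was made with genes of as many ASC peaks, so these shares are not on a like basis.

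T1 and T2 of B1 shared 1 H19 peak, that at 1928 nt with 7 reads per bin in T1. T1 and T2 of B2 shared 3, each with 5 reads per bin in T1. The B1 peak was none of the B2 peaks, so no H19 peak passed the rule that asks for all 4 libraries. When B1 T1, which had the fewest H19 peaks, was left out, 2 peaks were shared, at 1068 and 2488 nt from the 5′ end.

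H19 took a larger share of the exonic peaks in ASCs than in C2C12. It held 0.703% of the exonic peaks in ASC B1 T1 (95% Clopper-Pearson interval 0.145 to 2.04), 0.748% in B1 T2 (0.301 to 1.53), 0.497% in B2 T1 (0.182 to 1.08) and 0.347% in B2 T2 (0.173 to 0.62). In C2C12 the share was 0.0582% (0.0333 to 0.0945) and 0.0433% (0.0224 to 0.0756). Over all listed peaks neither the groups nor the intervals of ASC and C2C12 overlapped. The intervals take each peak of a library as independent and cover counting error only. They do not measure the spread between replicates, so their lack of overlap is no test between the cell types. The means were 0.574 ± 0.215% in ASC (SD, n = 2 biological replicates) and 0.0507 ± 0.0106% in C2C12 (SD, n = 2 libraries), a ratio of 11.3. When only peaks with at least 6 reads per bin were kept, the ASC libraries had 1, 5, 1 and 4 H19 peaks and the ratio of the means was 10.5. The share was then 0.503% (0.0127 to 2.77) in B1 T1 and 0.155% (0.00391 to 0.858) in B2 T1, each from 1 peak and with an interval that overlapped those of C2C12. Of all peaks, exonic or not, H19 held 0.037% to 0.0757% in ASC and 0.0264% and 0.0167% in C2C12, with intervals that overlapped. Exonic peaks numbered from 427 to 3170 in an ASC library and 27492 and 27737 in C2C12, so the denominators differed together with cell type, cell number and depth, whose parts in the ratio cannot be told apart.

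**Figure D3:**
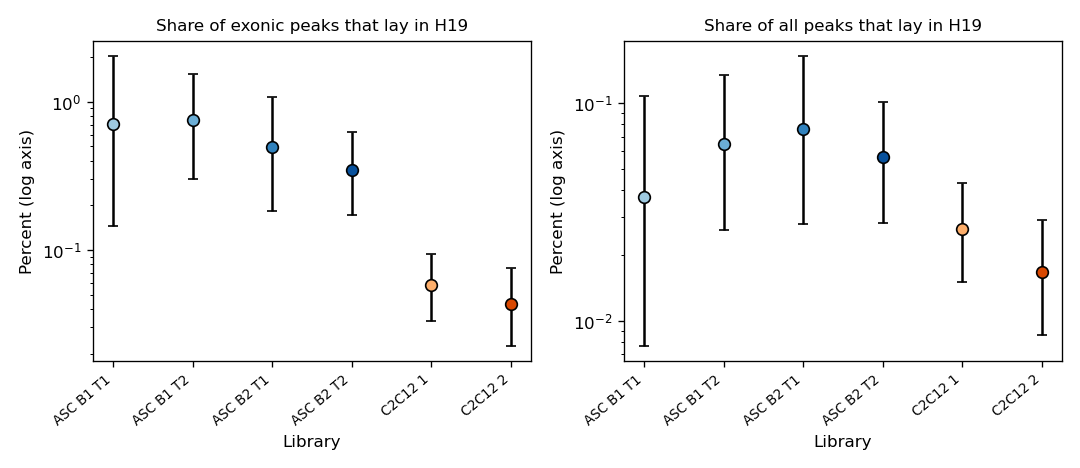
Percentage of exonic peaks on the strand of the RNA (left) and of all peaks (right) that lay in H19, on log axes, for each library (x axis), with bars for the 95% Clopper-Pearson interval. Among exonic peaks the 4 ASC libraries lie between 0.347% and 0.748%, above both C2C12 libraries, whereas among all peaks the intervals overlap. The intervals cover counting error within a library only.

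By number of peaks on the strand of the RNA, H19 ranked 25 of 2167 genes in ASC B1 T1, a rank that 57 genes with 3 peaks shared. It ranked 15 of 2977 in B1 T2 (7 genes tied), 20 of 2731 in B2 T1 (11 tied) and 27 of 5252 in B2 T2 (3 tied). In C2C12 it ranked 557 of 9135 (67 tied) and 912 of 10086 (105 tied). Among long noncoding genes it ranked 2, 4, 4 and 4 in the ASC libraries, and 21 and 27 in C2C12. Its number of C2C12 shared peaks per kb of merged exon was 4.64, rank 917 of 6169 genes with a shared peak and rank 24 of the 185 long noncoding genes. Shared peaks in introns are counted in this measure too, which raises genes whose introns carry peaks. Among the 4899 genes with at least 1000 nt of exon and a shared peak its rank was 157. Of the 916 genes above it in the wider list, 760 had less exon than that, and on so little exon a few peaks give a high value per kb. With exonic peaks alone, over protein-coding and long noncoding genes with at least 1000 nt of exon, its rank was 71 of 3433.

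The long noncoding genes nearest to H19 in C2C12 shared peaks per kb of exon were Pisd-ps1 with 4.55, 4930557F10Rik with 4.76 and Gm15501 with 4.37. Pisd-ps1 had 13 peaks in each C2C12 library and 1 in all ASC libraries together. 4930557F10Rik and Gm15501 had only 630 and 687 nt of merged exon, with 3 shared peaks each. The interval of 4930557F10Rik is far longer than its exon, and it had 2 peaks in every ASC library. The likeness is in this one measure over 2 libraries.

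The motif GGAC, the core of the consensus in which m6A is made, was about as frequent near the H19 peaks as along the whole gene. On the RNA strand only, the H19 interval of 2615 nt holds 11 GGAC, and 3 of these 11 (27.3%) lay within 20 nt of a C2C12 shared peak, a zone that takes up 27.5% of the interval. For the peaks of all 6 libraries these numbers were 6 of 11 (54.5%) and 53.5%. Of the 8 H19 shared peaks that were 1 bin wide, 2 held GGAC within 20 nt (25%), at 1868 and at 1008 nt, beside 21.5% of the 11719 exonic C2C12 shared peaks of that width. Both also held the longer GGACT, which contains GGAC, beside 6.08% of those exonic peaks. A match is a description of the letters and not of a methylated base.

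Igf2, the growth factor gene next to H19 (chr7:149836673-149852721, minus strand), had peaks in ASC libraries only. There was 1 in B1 T2, there were 3 in B2 T2, and the T1 libraries and both C2C12 libraries had 0. The 4 peaks lay at 4 different places, each called in 1 library. Their 4 or 5 reads per bin are among the lowest that these libraries list. The C2C12 libraries list no peak below 6 reads per bin, so as many reads there could not have been listed. All came from a T2 library, and none was called in the T1 library of the same replicate. All 4 bins occur once in the mm9 genome. The bins of 3 of them are shown in capitals, with the feature and library in the name.
Igf2 3′UTR, ASC B1 T2: TGACTTCTGGGGACAGTGGC
Igf2 3′UTR, ASC B2 T2: GACCCAAAATTTTGCAGGTG
Igf2 5′UTR, ASC B2 T2: CAGCTGAGGCGCCGCCACGC

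These 3 lay 14881, 13521 and 7721 nt from the 5′ end of the gene interval, in that order. On the other strand Igf2 had 1 peak with 5 reads, in ASC B1 T2. Igf2as, the antisense gene that overlaps Igf2, had no peak on the strand of its RNA in any library.

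Igf2r, the receptor gene (chr17:12875272-12962530, minus strand), had peaks mostly in C2C12. It had 1 peak in ASC B2 T2, 0 in the other 3 ASC libraries and 4 in each C2C12 library. None of the C2C12 peaks was shared, so the 8 peaks marked 8 different places. In replicate 1, 2 peaks lay in the 3′UTR with 6 reads per bin each and 2 in coding exons with 8 reads each. In replicate 2, 1 lay in the 3′UTR with 7 reads, 2 in coding exons and 1 in an intron, with 6 reads each. The bin of the intronic peak, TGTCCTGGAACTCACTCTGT, is found 44817 times in mm9, and the reads were placed at up to 10 positions, so that this peak cannot be tied to Igf2r. The ASC peak lay in the first coding exon, 170 nt from the 5′ end, with 6 reads.

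On the other strand of Igf2r, that of the RNA of Airn, C2C12 had 2 and 5 peaks and ASC 1, in B2 T1. Airn, the noncoding RNA that silences Igf2r on the paternal chromosome, runs from inside Igf2r to far upstream of it (chr17:12934177-13052988, plus strand). It had 29 and 39 peaks in C2C12 and 0, 0, 1 and 3 in the ASC libraries, and the C2C12 replicates shared 15, of which 14 lay outside Igf2r. Of these 15, 12 were in introns of the annotated transcripts, and the peaks do not tell whether the RNA was spliced there. The highest was the one inside Igf2r, in an intron 1530 nt from its 5′ end, with 14 and 15 reads per bin. Its bin, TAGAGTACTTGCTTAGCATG, is found 18 times in mm9. Of all 72 Airn peaks, 61 had a bin that occurs once.

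**Figure D4:**
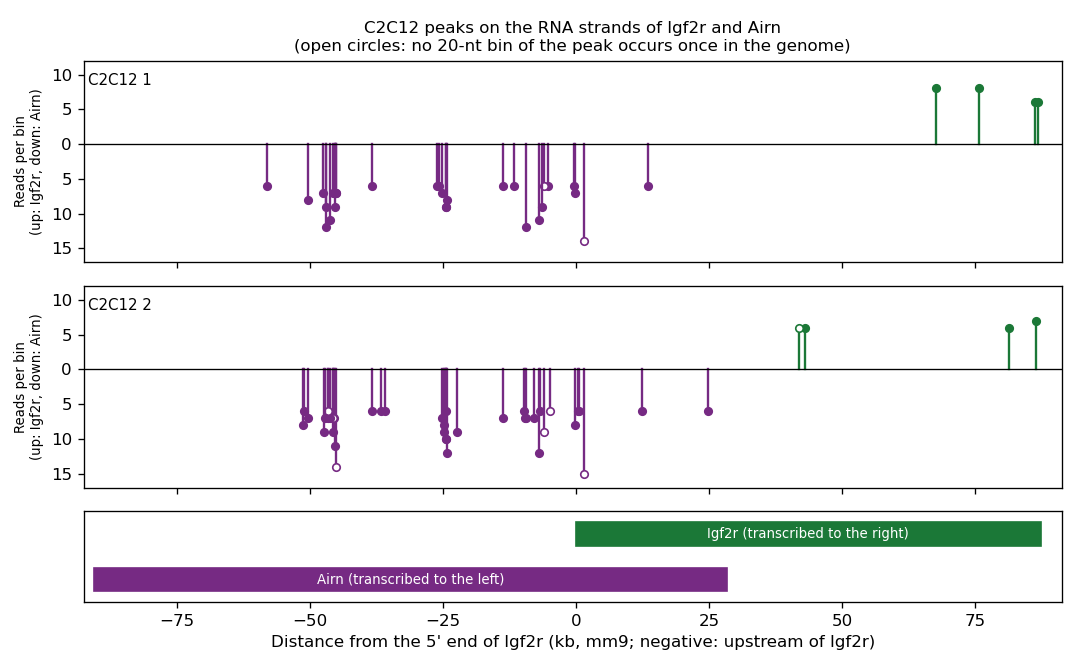
C2C12 peaks on the strand of the Igf2r RNA (up, green) and of the Airn RNA (down, purple), at their distance from the 5′ end of Igf2r in kb (x axis), with the reads per bin as height (y axis), for replicates 1 and 2. The 4 Igf2r peaks of each replicate lie beyond the reach of Airn, and the Airn peaks lie mostly upstream of Igf2r, with 1 at 14 and 15 reads just inside it whose sequence is repeated (open circle).

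Kcnq1ot1, the antisense RNA of the Kcnq1 cluster, has no interval in the annotation. Its RefSeq promoter, 250 bases before to 50 after the start, matched mm9 at 1 place, chr7:150482403-150482702 on the minus strand, inside Kcnq1. Over the 83437 nt that RefSeq gives for the gene in GRCm38, counted from this start, the strand of its RNA had 0, 1, 0 and 1 peaks in the ASC libraries and 3 and 0 in C2C12. Those of C2C12 replicate 1 lay 272, 552 and 24412 nt after the start, with 6, 6 and 7 reads per bin. The ASC peaks, with 5 reads each, lay 1092 nt after it in B1 T2 and 25232 nt after it in B2 T2, the latter next to a run of at least 10 G on the strand of the reads. No place was called in more than 1 library. The bounds of Kcnq1ot1 in mm9 are those of this placement, and the count was added after the data were seen.

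Elsewhere in Kcnq1, on the same strand, C2C12 had 2 further peaks in replicate 1 and 1 in replicate 2, and 1 of these was shared, with 8 and 6 reads per bin. Its bin is found 472 times in mm9. Kcnq1 itself, a potassium channel gene, had 1 peak in each ASC library and none in C2C12 on the strand of its RNA, all in introns with 5 or 6 reads, and 1 of them was called in both T1 and T2 of B2.

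The Dlk1-Meg3 cluster was almost free of peaks. Dlk1 (chr12:110691033-110701546), Meg3 (chr12:110779211-110809936) and Mirg (chr12:110973191-110987665), all on the plus strand, had none on either strand in any library. Rian (chr12:110842155-110899919, plus strand) had 1, in ASC B2 T2, with 4 reads per bin, the lowest that library lists. It lay in an intron, chr12:110874221-110874240, on a copy of the small nucleolar RNA gene SNORD113, and its sequence, ATAGGCCAATGATGAGGAGC, occurs once in mm9. From the start of Dlk1 to the end of Mirg, a stretch of 296633 nt with 52 miRNA and 23 snoRNA genes on the plus strand, the strand of these RNAs held that peak and 1 more with 5 reads, in ASC B2 T1. C2C12 had none there, and its libraries list no peak below 6 reads per bin.

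The other genes of the IGF and Notch pathways, in which Igf2, Igf2r and Dlk1 act, carried more peaks. Of 30 such genes, 21 had a C2C12 shared peak, with a median of 3 over the 30 beside a median of 0 over all annotated genes, and 3 had an ASC shared peak, beside 16.5% and 2.09% of all annotated genes and 21.8% and 2.46% of protein-coding genes. All 30 are protein-coding, and no comparison was made with genes of like length or RNA level. The most were in Igfbp5 with 48, Notch2 with 41, Irs1 with 31, Igfbp2 with 14 and Igf1r with 10. Igfbp5 and Igfbp2 encode proteins that hold IGFs outside the cell, Igf1r the receptor that signals for Igf2, Irs1 the adaptor below it, and Notch2 a receptor of the Notch pathway. Igfbp5 had 63 and 61 peaks in C2C12 and 1, 0, 0 and 1 in the ASC libraries, and Notch2 had 93 and 85 against 0, 0, 3 and 3. Igf1, the other IGF ligand, had no peak in any library.

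Of 57 other imprinted genes, 54 were annotated, 19 had a C2C12 shared peak and 2 an ASC shared peak, beside the same 16.5% and 2.09% of all annotated genes. Most of the 54 are protein-coding, and of all protein-coding genes 21.8% and 2.46% had such a peak. The median was 0 C2C12 shared peaks. Those with the most were Xist with 101, H13 with 25, Airn with 15, and Gnas and Peg3 with 14 each. Xist is the noncoding RNA of the inactive X chromosome, H13 encodes a signal peptide peptidase, Gnas the stimulatory G protein subunit and Peg3 a zinc finger protein. The 11 shared peaks of H19 came next after these. Xist had 151 peaks in each C2C12 library and 0, 2, 1 and 2 in the ASC libraries, whereas H19 had 16 and 12 against 3, 7, 6 and 11. The genes were listed by name, and whether each is imprinted in these cells was not tested. The sex of the cells, with which Xist varies, is not among the labels used here. Cdkn1c, the cell cycle inhibitor of the Kcnq1 cluster, had no peak in any library.

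**Figure D5:**
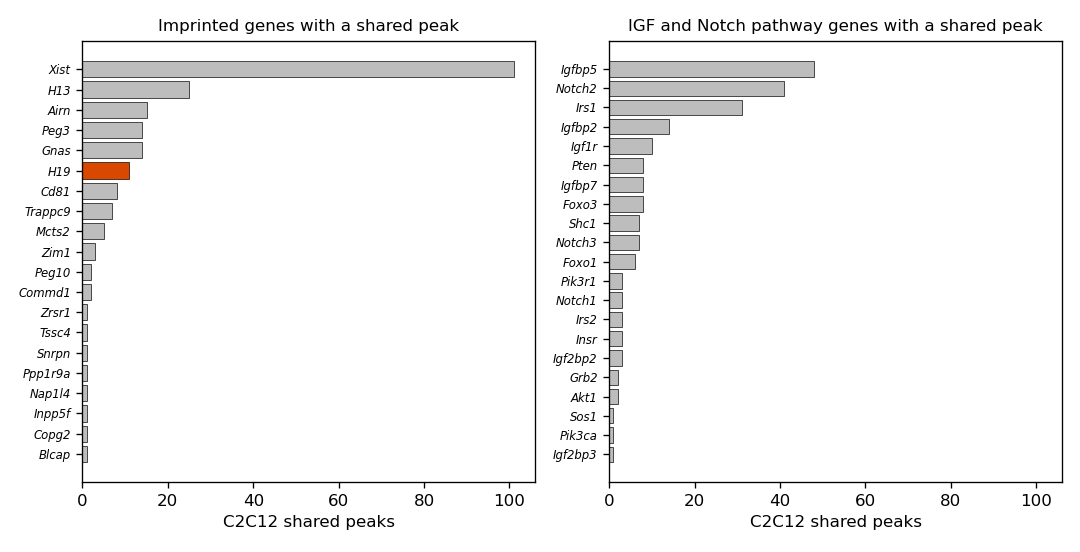
Number of C2C12 shared peaks on the strand of the RNA (x axis) of each gene with at least 1, among imprinted genes with H19 added in orange (left) and among IGF and Notch pathway genes (right). H19 stands at 11, after Xist, H13, Airn, Gnas and Peg3.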

How the data were processed

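Adapters and poly(A) were cut by the authors with cutadapt 1.15, pre-rRNA reads were taken out, and what remained was aligned to mm9 by Bowtie 1.2.3, keeping as many as 10 positions for a read. Piranha peaks are listed for each library in bins of 20 nt; its settings are named for ASCs, and those for C2C12 are not given in the sources used here. The deposited signal is the number of reads per bin (averaged over the bins where a peak is wider), not normalized, and the deposited p-value is Piranha's own, unadjusted. How duplicate reads were treated is not given in the sources used here.

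Peaks were set against GENCODE vM1 genes on NCBIM37 (mm9) in Python 3.11.15 with pysam 0.24.0, and intervals are 95% Clopper-Pearson (scipy 1.17.1). A shared peak overlaps, on its own strand, a peak of the other library by 1 nt or more. Long noncoding genes are those typed lincRNA or processed transcript, and exonic peaks are counted over these and the protein-coding genes. The rules of overlap, sharing, merging and same-strand matching were tested on simulated peaks. That does not test whether the reads of an RNA lie on the strand opposite to its gene. Named are all 8 members, the 5 highest shared peaks of a member with more than 10, the 3 genes nearest in shared peaks per kb, and the 5 genes of each list with the most shared peaks; Pax7, Pecam1, Igf1 and Cdkn1c, and the genes among the other observations, were named after their values were seen. The place and sequence of 1 Igf2 peak are not reported here. The members and lists were chosen with earlier results of these data known. Alternatives changed the strand, overlap, p-value, reads, copies, G runs, interval, sharing rule and libraries.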

Additional observations from a re-analysis of the deposited data

Results flagged for a closer look

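Among the 4 ASC libraries, Igf2r and Rian each had 1 peak on the strand of the RNA in B2 T2 and 0 in the other 3, so that B2 T2 stood apart from the rest in both. Chance sets apart about 1 in 20 groups of measured values, but among counts of 0 any single peak does so. B2 T2 is the library that lists the most ASC peaks and lists them down to 4 reads per bin. The part of this in both values was not tested.

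Inside Igf2r, the strand of the gene, which the counts for Igf2r do not use, held 2 peaks in C2C12 replicate 1 and 5 in replicate 2. Inside Kcnq1 the same strand, that of the Kcnq1ot1 RNA, held 5 peaks in C2C12 replicate 1 and 1 in replicate 2. The shared peak on that strand has a bin found 18 times in mm9 in Igf2r and 472 times in Kcnq1.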

How the results depend on the processing

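Of 84 alternative values, 70 stayed within the limits set for them (a count within 1.5 times) and 14 moved. Most of the 70 were counts of 0 that stayed 0, which a stricter filter cannot raise. They say little about how stable the other counts are. The 11 C2C12 shared peaks of the 7 genes, all of H19, became 3 with a Piranha p of at most 0.0001 and 1 with at most 1e-05, both over the genes together and for H19 alone. On the strand of the gene in place of the strand of the RNA the count was 1, over any C2C12 library 25, and with 1 C2C12 library left out from 16 to 20. The count for Igf2r, 0 when shared, was 4 with either library left out. The ASC shared count of 0 became 25 over any library and ranged from 0 to 2 with 1 library left out, the 2 being without B1 T1. The background of 16.5% was 21.8% for protein-coding and 4.81% for long noncoding genes. The rank of H19 per kb of exon, 917, was 157 among genes with at least 1000 nt of exon, which was tried only after seeing the data, as was the limit of 6 reads on its share of exonic peaks. Peaks listed only above 4 to 6 reads limit what can be said of genes without any. No paired analysis was possible because no result comes from a test between groups that share replicate numbers.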

Other observations

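Few long noncoding genes were peaked on their RNA strand in every library. There were 47 of 3845, beside 596 of 22380 protein-coding genes. Among these 47, H19 had the third highest number of ASC peaks, 27 over the 4 libraries, after Malat1 with 54 and D230017M19Rik with 35 and before Neat1 with 24. In C2C12 the order was another: Neat1 had 214 and 221 peaks, Malat1 79 and 88, H19 16 and 12, and D230017M19Rik 8 and 9. Several hosts of small nucleolar RNAs were also among the 47, such as Snhg12, with 3, 5, 6 and 7 peaks in the ASC libraries and 9 and 8 in C2C12, and Snhg1, with 1, 2, 5 and 6 in ASC and 8 and 9 in C2C12.

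Mest, a paternally expressed gene of the imprinted list, had 1 peak in each of the 4 ASC libraries, all at 1 shared place, and none in C2C12. It was picked out after its values were seen.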
